A study of Danio rerio with 6 samples.

Results

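The genes described here mark or act in the phagocytes of the zebrafish head, that is macrophages, the microglia that macrophage precursors form in the brain, and neutrophils. They are 40 genes taken by symbol, which have 41 entries among the 32057 genes of the deposited table, because mmp13a is listed under a pair of gene identifiers. From general knowledge of their expression, 25 were placed among genes largely restricted to leukocytes. The other 15 (16 entries) were placed among genes that other cells are known to express too or whose restriction is uncertain. This division was made with earlier results of these data known, and some genes, arg2 among them, could be placed otherwise. Differences between the classes are therefore description only. RNA was taken at 2 days post-fertilization (dpf) from whole dissected embryo heads, which the labels file under brain. The treated embryos were exposed to the tire rubber antioxidant 6PPD at 500 µg/L, starting 10 hours post-fertilization (hpf), and the controls to its solvent DMSO. All embryos received the pigment inhibitor PTU at 0.003% from 24 hpf. Each group held 3 samples that the labels call biological replicates, and each sample pooled 150 heads. The labels give no strain, transgene or mutation, and no cells were sorted, so each value sums over all tissues of the head.

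In zebrafish, macrophages and neutrophils arise early from primitive myeloid precursors under the transcription factor PU.1, which spi1b encodes. Macrophages enter the brain and become microglia, guided in part by the ligand Il34 and the receptors of the Csf1r family, and they take up dying neurons. Neutrophils carry granules with peroxidase and proteases, and both cell types use a membrane NADPH oxidase to produce superoxide. Matrix metalloproteases such as Mmp9 and Mmp13 are secreted by leukocytes, and also by epidermal and connective tissue cells during tissue remodelling and after injury.

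Levels are given as FPKM, fragment counts divided by gene length and library size, so they can be compared between genes. Differences between groups were tested by limma on log2(FPKM + 1) in the 15320 genes that averaged 1 FPKM or more, and a gene was called at a Benjamini-Hochberg adjusted p under 0.05 over all of them. Of these genes 3.41% were called, 2.26% higher and 1.15% lower in 6PPD. Higher genes made up 66.3% of all calls, but 45.8% under median-ratio scaling, 52.9% under quantile normalization, 51.5% under cyclic loess and 51.1% once a gene length trend was removed. After rescaling to a common sum, higher genes made up 75.5%. The table gives no read totals, so the depth behind low values is unknown.

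Across the 40 genes, lysozyme (lyz), the gelatinase gene mmp9 and the mitochondrial arginase gene arg2 fell in 6PPD, and 0 rose by limma. The other restricted genes tested lay between log2 fold changes of -0.40 and 0.37. Of 10 restricted genes tested, 1 was called (lyz, lower) and 2 had an unadjusted p under 0.05, 1 higher (mfap4) and 1 lower (lyz). Of 11 entries tested among the shared genes, 2 were called (both lower), and 3 had an unadjusted p under 0.05, all lower. Over the whole set tested, 3.41% were called (1.15% lower and 2.26% higher), and 20.3% passed that unadjusted threshold, 13.4% higher and 6.93% lower. The median log2 fold change was 0.01 for the restricted genes tested, -0.08 for the shared entries tested and 0.06 for all genes tested. The second mmp13a entry passed the filter only through its DMSO level, and the Il34 gene only through its 6PPD level, so these counts are not counts over all members. The other 20 entries, 15 restricted and 5 shared, lay below the filter and were not tested.

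**Figure D1:**
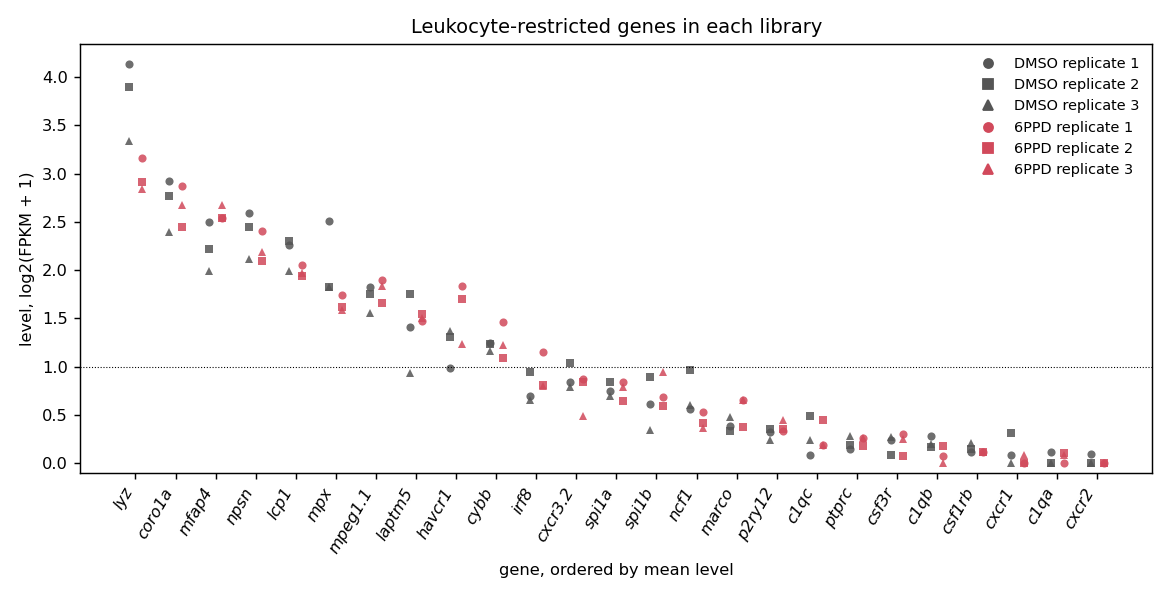
Level of the 25 leukocyte-restricted genes in each library, as log2(FPKM + 1) on the y axis, with genes on the x axis ordered by their mean over the 6 libraries; grey marks are DMSO and red marks 6PPD, with one mark shape for each replicate number, and the dotted line is 1 FPKM. The lyz gene stands highest and separates the groups, and most other genes overlap between them.

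The transcription factors that set myeloid fate were low and overlapped between groups. For spi1b, which encodes PU.1, the DMSO libraries had 0.526, 0.858 and 0.265 FPKM and the 6PPD libraries 0.602, 0.508 and 0.923 FPKM. Its relative spi1a was at 0.695 ± 0.0836 (DMSO) and 0.696 ± 0.12 FPKM (6PPD) (SD, n = 3 each). The factor irf8, which favours macrophage over neutrophil fate in zebrafish, measured 0.702 ± 0.188 (DMSO) and 0.905 ± 0.278 FPKM (6PPD). None of these 3 reached the filter. The spi1a gene shares 6656 bases with clpxb on the opposite strand, whereas spi1b shares 528 bases with another gene on the opposite strand. Shared bases here and below are those of whole gene spans, introns included, and overlap of exons was not measured. The sources used here do not say whether counting used strand. How far fragments of such partners entered these values is therefore unknown. Among the shared genes, cebpa, which encodes a C/EBP factor of granulocytes, liver and other tissues, had 3.51, 3.00 and 3.99 FPKM in DMSO and 3.04, 2.46 and 2.55 FPKM in 6PPD. The groups of cebpa overlapped, and its log2 fold change was -0.29 ± 0.13 (SE; limma adjusted p = 0.267).

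General leukocyte genes showed no call. The coro1a gene encodes coronin 1A, an actin regulator of leukocytes, and had 6.59, 5.80 and 4.27 FPKM in DMSO and 6.32, 4.44 and 5.40 FPKM in 6PPD. Its interval for the log2 fold change ran from -0.40 to 0.33 (95%, limma adjusted p = 0.927). The actin-bundling L-plastin gene lcp1 had 3.80, 3.95 and 2.97 FPKM in DMSO and 3.14, 2.84 and 2.91 FPKM in 6PPD. Only DMSO replicate 3 of lcp1 reached into the 6PPD range, and the log2 fold change was -0.20 ± 0.13 (SE; limma adjusted p = 0.408). The lysosomal membrane gene laptm5 was at 1.64 ± 0.727 (DMSO) and 1.84 ± 0.0672 FPKM (6PPD). For ptprc, the gene of the leukocyte phosphatase CD45, the DMSO libraries had 0.107, 0.136 and 0.216 FPKM and the 6PPD libraries 0.198, 0.132 and 0.200 FPKM. The coro1a gene shares 639 bases with the claudin gene cldni on the opposite strand, which measured 68.1 ± 0.742 (DMSO) and 64.8 ± 9.49 FPKM (6PPD).

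Of 3 macrophage and microglia genes tested (mfap4, mpeg1.1 and havcr1) limma called 0, and mfap4 had an unadjusted p under 0.05. Among all genes tested 3.41% were called and 20.3% had an unadjusted p under 0.05. The mfap4 gene, a macrophage marker in zebrafish, had 4.66, 3.64 and 2.97 FPKM in DMSO and 4.80, 4.82 and 5.38 FPKM in 6PPD. The groups did not overlap, and the log2 fold change of 0.35 ± 0.14 was not called (SE; limma adjusted p = 0.213). The mfap4 gene lies inside a second entry, named MFAP4, on the opposite strand, which was at 0.0357 ± 0.026 FPKM in DMSO. The perforin-2 gene mpeg1.1, whose promoter is widely used to label macrophages, had 2.55, 2.37 and 1.94 FPKM in DMSO and 2.73, 2.15 and 2.57 FPKM in 6PPD. These values overlapped, with an interval for the log2 fold change from -0.22 to 0.39 (95%, limma adjusted p = 0.75). The phosphatidylserine receptor gene havcr1 had 0.978, 1.47 and 1.58 FPKM in DMSO and 2.56, 2.25 and 1.35 FPKM in 6PPD. Its 6PPD replicate 3 lay within the DMSO range, and its log2 fold change of 0.37 ± 0.18 was not called (SE; limma adjusted p = 0.296).

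Of the macrophage and microglia genes, 8 lay below the filter. For p2ry12, the ADP receptor of microglia, the DMSO libraries had 0.254, 0.273 and 0.176 FPKM and the 6PPD libraries 0.259, 0.276 and 0.359 FPKM. The receptor gene csf1rb had 0.0855, 0.106 and 0.153 FPKM in DMSO and 0.0854, 0.0830 and 0.0787 FPKM in 6PPD. The groups of csf1rb did not overlap, but its lowest DMSO and highest 6PPD library were almost equal. The complement genes c1qa, c1qb and c1qc, which lie next to each other on chromosome 21 (gaps of 1576 and 2527 bases), ranged from a listed 0 to 0.399 FPKM. The scavenger receptor gene marco was at 0.321 ± 0.0676 (DMSO) and 0.479 ± 0.16 FPKM (6PPD), and the chemokine receptor gene cxcr3.2 at 0.855 ± 0.167 and 0.674 ± 0.24 FPKM.

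Of the ligand side, il34 encodes a ligand of Csf1r made by neurons and skin cells in mammals. It had 0.690, 0.717 and 1.04 FPKM in DMSO and 1.43, 1.28 and 0.931 FPKM in 6PPD. Replicate 3 of each group lay in the range of the other group, and the log2 fold change was 0.28 ± 0.15 (SE; limma adjusted p = 0.323). The other Csf1r ligand genes csf1a and csf1b had log2 fold changes of 0.05 and -0.11 (limma adjusted p = 0.85 and 0.741). The receptor gene csf1ra, which pigment cells express too, ranged from 0.630 to 1.302 FPKM in DMSO and from 0.676 to 1.18 FPKM in 6PPD.

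Of 3 neutrophil genes tested lyz fell, and mpx and npsn were not called. Among all genes tested 3.41% were called, 1.15% lower. The lyz gene (ENSDARG00000057789, chromosome 24, 24035863 to 24038800 on GRCz11) encodes the cell wall-degrading enzyme of neutrophil granules and is also made by macrophages. It had 16.6, 13.9 and 9.14 FPKM in DMSO and 7.96, 6.54 and 6.15 FPKM in 6PPD. All 3 treated libraries lay below all 3 controls, with DMSO replicate 3 nearest to them. The mean fell from 13.2 ± 3.77 to 6.88 ± 0.951 FPKM (SD, n = 3 each), 1.92-fold lower, with a log2 fold change of -0.82 ± 0.19 (SE; limma adjusted p = 0.0468). This call was lost when DMSO replicate 1 was left out (-0.65, adjusted p = 0.098), and likewise without DMSO replicate 2 and without each of 6PPD replicates 1, 2 and 3 (limma adjusted p = 0.159, 0.0866, 0.136 and 0.159). Over its 18 alternatives the adjusted p of lyz ranged from 0.0109 to 0.169, and the log2 fold change from -1.04 to -0.65. The annotated gene abcc13 shares 2606 bases with lyz on the same strand and measured 2.44 ± 0.0871 (DMSO) and 2.15 ± 0.0896 FPKM (6PPD).

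The myeloid peroxidase gene mpx, the classical neutrophil marker of zebrafish, had 4.67, 2.53 and 2.54 FPKM in DMSO and 2.35, 2.06 and 2.00 FPKM in 6PPD. The groups did not overlap, yet DMSO replicate 1 stood well apart from the other controls. The log2 fold change was -0.40 ± 0.19 (SE; limma adjusted p = 0.267), and -0.17 without DMSO replicate 1 (limma adjusted p = 0.552). The nephrosin gene npsn, a metalloprotease gene of zebrafish neutrophils, had 5.01, 4.45 and 3.34 FPKM in DMSO and 4.29, 3.27 and 3.56 FPKM in 6PPD. Its groups overlapped (log2 fold change -0.15 ± 0.15, limma adjusted p = 0.591). The G-CSF receptor gene csf3r ranged from 0.0544 to 0.228 FPKM over all libraries. The receptor genes cxcr1 and cxcr2 are neighbours on chromosome 9. For cxcr1 the DMSO libraries had 0.0574, 0.240 and 0 FPKM and the 6PPD libraries 0, 0 and 0.0603 FPKM. The cxcr2 gene was listed above 0 only in DMSO replicate 1 (0.0654 FPKM).

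Subunits of the phagocyte NADPH oxidase did not move together. The catalytic subunit gene cybb was at 1.32 ± 0.0721 (DMSO) and 1.41 ± 0.32 FPKM (6PPD) (limma adjusted p = 0.886). Its membrane partner gene cyba, which other cells use too, had 2.35, 3.95 and 4.24 FPKM in DMSO and 4.72, 4.09 and 3.83 FPKM in 6PPD, with overlapping groups (limma adjusted p = 0.482). The cytosolic subunit gene ncf1 had 0.473, 0.951 and 0.519 FPKM in DMSO and 0.446, 0.335 and 0.283 FPKM in 6PPD. All treated values of ncf1 were below all controls, but it lay below the filter and was not tested. The cytosolic subunit gene ncf4 ranged from 0.104 to 0.318 FPKM.

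**Figure D2:**
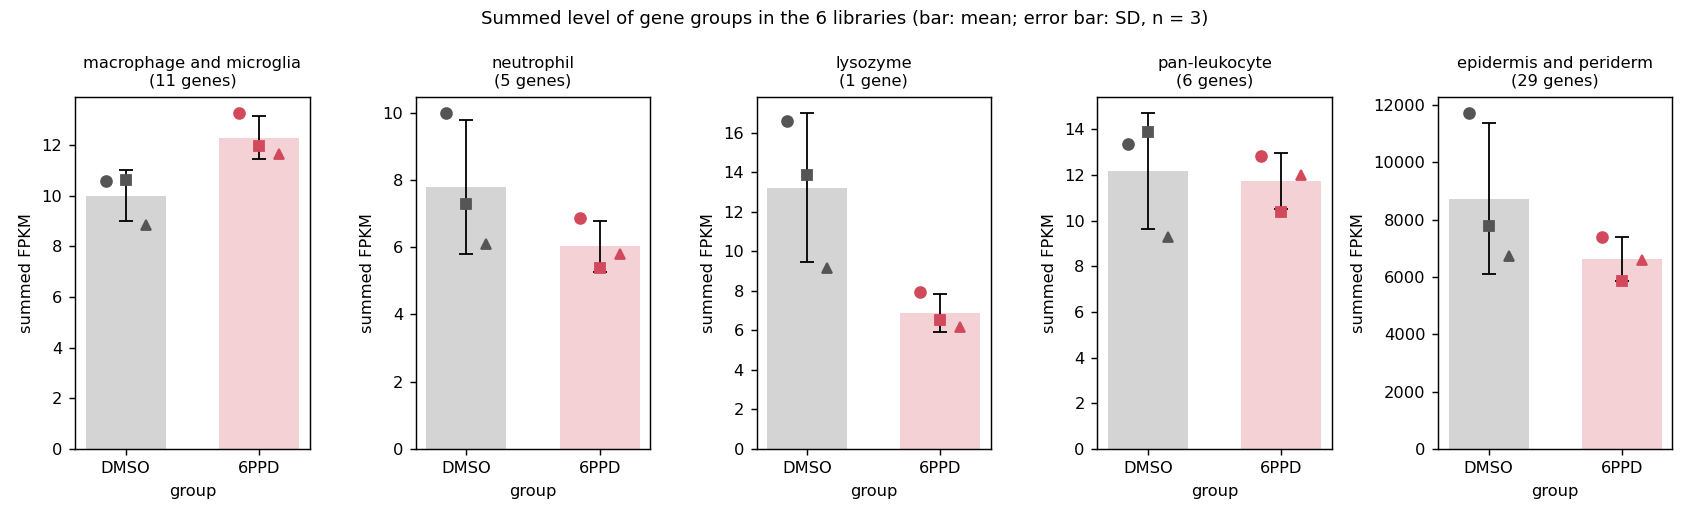
Summed FPKM (y axis, from 0) of the macrophage and microglia genes, the neutrophil genes without lyz, lyz itself, the general leukocyte genes and a list of epidermis and periderm markers, in DMSO and 6PPD (x axis); bars are means, error bars SD over 3 libraries, and marks are replicates 1 (circle), 2 (square) and 3 (triangle). The macrophage and microglia sums run from 8.84 to 10.6 in DMSO and from 11.6 to 13.3 in 6PPD (overlapping without mfap4), while the neutrophil and general leukocyte sums overlap between groups.

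Summed over all 25 restricted genes, the level was 52.4, 47.9 and 35.1 FPKM in DMSO and 43.1, 35.8 and 37.2 FPKM in 6PPD. Without lyz the sums averaged 31.9 ± 5.26 (DMSO) and 31.8 ± 3.04 FPKM (6PPD) (SD, n = 3 each). The 11 macrophage and microglia genes summed to 10.6, 10.6 and 8.84 FPKM in DMSO and to 13.3, 11.99 and 11.6 FPKM in 6PPD. The 5 neutrophil genes without lyz summed to 9.98, 7.29 and 6.08 FPKM in DMSO and to 6.87, 5.39 and 5.81 FPKM in 6PPD. The macrophage and microglia sums did not overlap between groups, and the neutrophil sums did. In a sum the highest genes weigh most, here mfap4 and npsn. Without mfap4 the macrophage and microglia sums overlapped, at 5.93, 6.97 and 5.87 FPKM in DMSO and 8.46, 7.17 and 6.25 FPKM in 6PPD. The mean log2(FPKM + 1) over all 11 genes overlapped too, at 0.741, 0.793 and 0.700 in DMSO and 0.878, 0.829 and 0.772 in 6PPD. In these whole heads, fewer cells of a type and less RNA per cell cannot be told apart.

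The control libraries differed among themselves. In 8 of the 10 restricted genes tested, DMSO replicate 3 was the lowest control, and in 4 it was the lowest of all 6 libraries. In 7 of the 10, DMSO replicate 1 was the highest control. Over all genes tested, DMSO replicate 3 was the lowest control in 23.2% and DMSO replicate 1 the highest in 28.9%. The summed FPKM of all genes (472121, 458779 and 434258 in DMSO replicates 1 to 3) and the mean log2 levels of the epidermal list (5.73, 5.42 and 5.26) and of the erythroid list (5.74, 5.61 and 5.45) followed the same order as most restricted genes. In the shared entries, DMSO replicates 1, 2 and 3 were lowest in 5, 3 and 3 of 11.

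**Figure D3:**
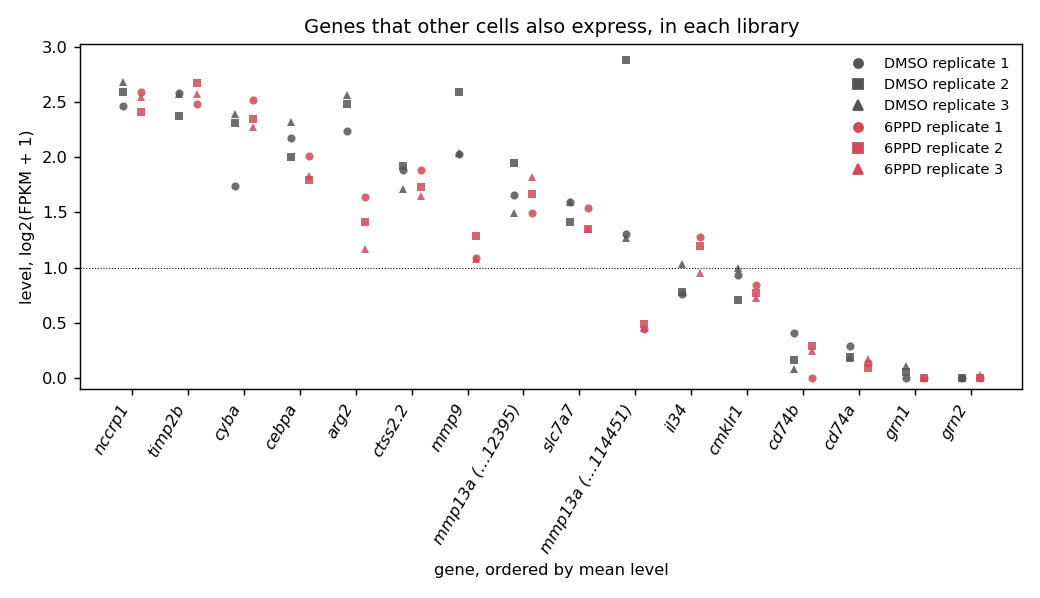
Level of the 16 entries of genes that other cells also express, as log2(FPKM + 1) on the y axis, with genes on the x axis ordered by their mean; grey marks are DMSO and red marks 6PPD, with one shape for each replicate number, and the dotted line is 1 FPKM. The groups stand apart for arg2, mmp9 and the mmp13a entry ENSDARG00000114451, whose DMSO replicate 2 is far above the others.

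Among genes that other cells express too, mmp9 and arg2 fell. The mmp9 gene (ENSDARG00000042816, chromosome 8, 24281512 to 24295947) encodes a gelatinase of leukocytes and of remodelling or injured epithelium. It had 3.08, 5.04 and 3.11 FPKM in DMSO and 1.13, 1.44 and 1.11 FPKM in 6PPD. Every treated library lay well below every control. The mean fell from 3.75 ± 1.12 to 1.22 ± 0.183 FPKM (SD, n = 3 each), 3.06-fold lower, with a log2 fold change of -1.07 ± 0.17 (SE; limma adjusted p = 0.0127). The call was lost without 6PPD replicate 1 (-1.04, limma adjusted p = 0.053) and without 6PPD replicate 3 (-1.03, limma adjusted p = 0.06). Over all 17 alternatives of mmp9 the adjusted p ranged from 0.0117 to 0.0916.

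The arg2 gene (ENSDARG00000039269, chromosome 13, 33024547 to 33034374) encodes the mitochondrial arginase, which splits arginine and is used by several tissues beside leukocytes. It had 3.72, 4.58 and 4.91 FPKM in DMSO and 2.12, 1.67 and 1.25 FPKM in 6PPD. The lowest control stood above the highest treated library by more than the spread within either group. The mean fell from 4.40 ± 0.614 to 1.68 ± 0.435 FPKM (SD, n = 3 each), 2.62-fold lower, with a log2 fold change of -1.02 ± 0.16 (SE; limma adjusted p = 0.0102). Without DMSO replicate 2 the arg2 call was lost (-0.99, limma adjusted p = 0.0506), and over all 17 alternatives of arg2 the adjusted p ranged from 0.00524 to 0.0783. Of all genes tested, 0.405% had a log2 fold change of -1 or less, as mmp9 and arg2 did. Both were named because they were called, so this share is background and no support for their falls.

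The collagenase gene mmp13a is listed in 2 neighbouring entries, 8180 bases apart on chromosome 10, and they differed. The entry ENSDARG00000012395 (38593645 to 38602561) had 2.15, 2.87 and 1.81 FPKM in DMSO and 1.82, 2.17 and 2.54 FPKM in 6PPD. Its groups overlapped fully (log2 fold change -0.04 ± 0.16, limma adjusted p = 0.908). The entry ENSDARG00000114451 (38610741 to 38620514) had 1.48, 6.38 and 1.40 FPKM in DMSO and 0.357, 0.405 and 0.371 FPKM in 6PPD. All treated libraries were below all controls, and DMSO replicate 2 stood far above the others, as it did less strongly for mmp9. Its log2 fold change of -1.36 ± 0.37 was not called (SE; limma adjusted p = 0.0809), and in 14 of 16 alternatives it was not called either. The exceptions were the fit without DMSO replicate 3 (-1.63, limma adjusted p = 0.0416) and a pseudocount of 0.1 (-2.38, limma adjusted p = 0.0387). The entry passed the filter only through DMSO, and without DMSO replicate 2 it lay below the filter and was not tested. The mean of DMSO replicates 1 and 3 was 1.44 FPKM, 3.81 times the 6PPD mean. The sequences of both entries were not compared, so whether fragments were divided between them is unknown, and the split is uncertain.

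The other shared genes tested showed no call, and their groups overlapped. The inhibitor gene timp2b was at 4.71 ± 0.457 (DMSO) and 4.97 ± 0.406 FPKM (6PPD). The receptor-like gene nccrp1 measured 4.99 ± 0.446 and 4.73 ± 0.381 FPKM, the cathepsin S gene ctss2.2 2.59 ± 0.264 and 2.38 ± 0.288 FPKM, and the amino acid transporter gene slc7a7 1.90 ± 0.201 and 1.67 ± 0.206 FPKM in DMSO and 6PPD. Their log2 fold changes were -0.07, -0.08 and -0.12 (limma adjusted p = 0.776, 0.737 and 0.631). The chemerin receptor gene cmklr1 ranged from 0.627 to 0.998 FPKM over all libraries. The invariant chain genes cd74a and cd74b of antigen presentation did not exceed 0.329 FPKM, and the granulin genes grn1 and grn2 were listed at 0 in 4 and 5 of 6 libraries.

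Groups that did not overlap were counted over all 41 entries. Among the 21 tested, 5 were lower (lyz, mpx, mmp9, arg2 and the second mmp13a entry) and 1 was higher (mfap4) in 6PPD. Of all genes tested, 9.18% were lower and 17.1% higher in this way (together 26.3%). The second mmp13a entry passed the filter only through its DMSO level, so its place among the 5 was partly set by the filter. Among the 20 below the filter, 3 were lower (csf1rb, ncf1 and cd74a), where 2.42% of all genes below the filter were, and 8.45% stood apart in either direction. These shares are no like background, since 10935 of the 16737 genes below the filter averaged under 0.1 FPKM, against 6 of these 20. The cd74a gene had 0.219, 0.143 and 0.130 FPKM in DMSO and 0.0972, 0.0632 and 0.129 FPKM in 6PPD, so its groups almost touched.

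**Figure D4:**
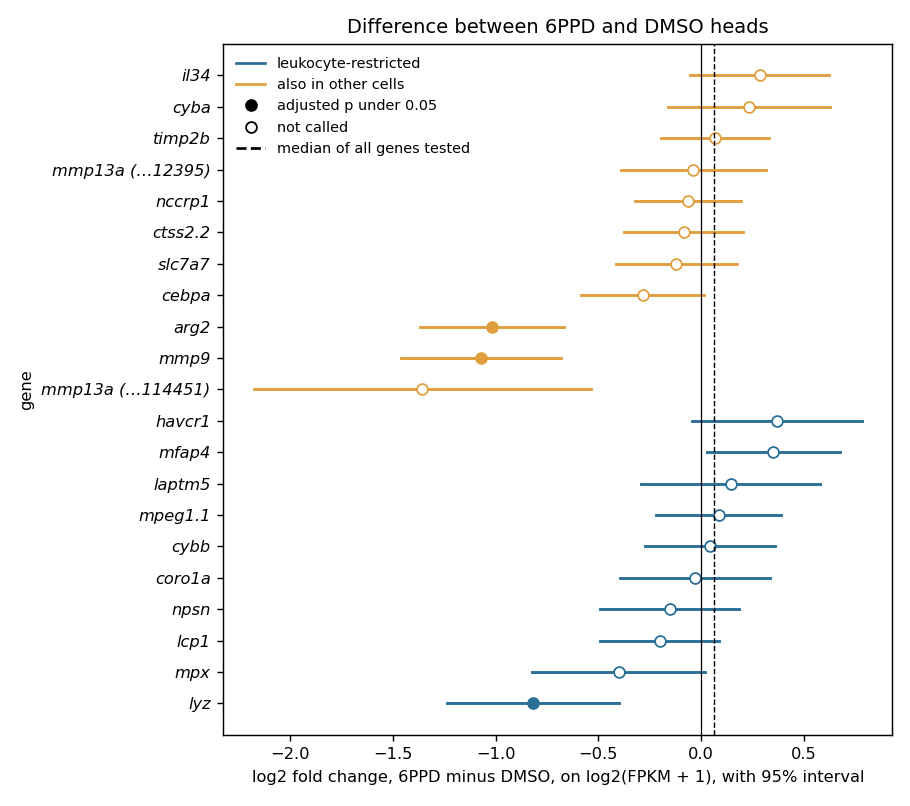
Log2 fold change of 6PPD against DMSO on the log2(FPKM + 1) scale (x axis) with its 95% interval for the 21 entries tested (y axis), leukocyte-restricted genes in blue and genes of other cells too in orange; filled circles are called, and the dashed line is the median of all genes tested (0.06). The intervals of 16 entries include 0, those of lyz, mmp9, arg2 and the second mmp13a entry lie below it, and that of mfap4 lies above it.

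**Figure D5:**
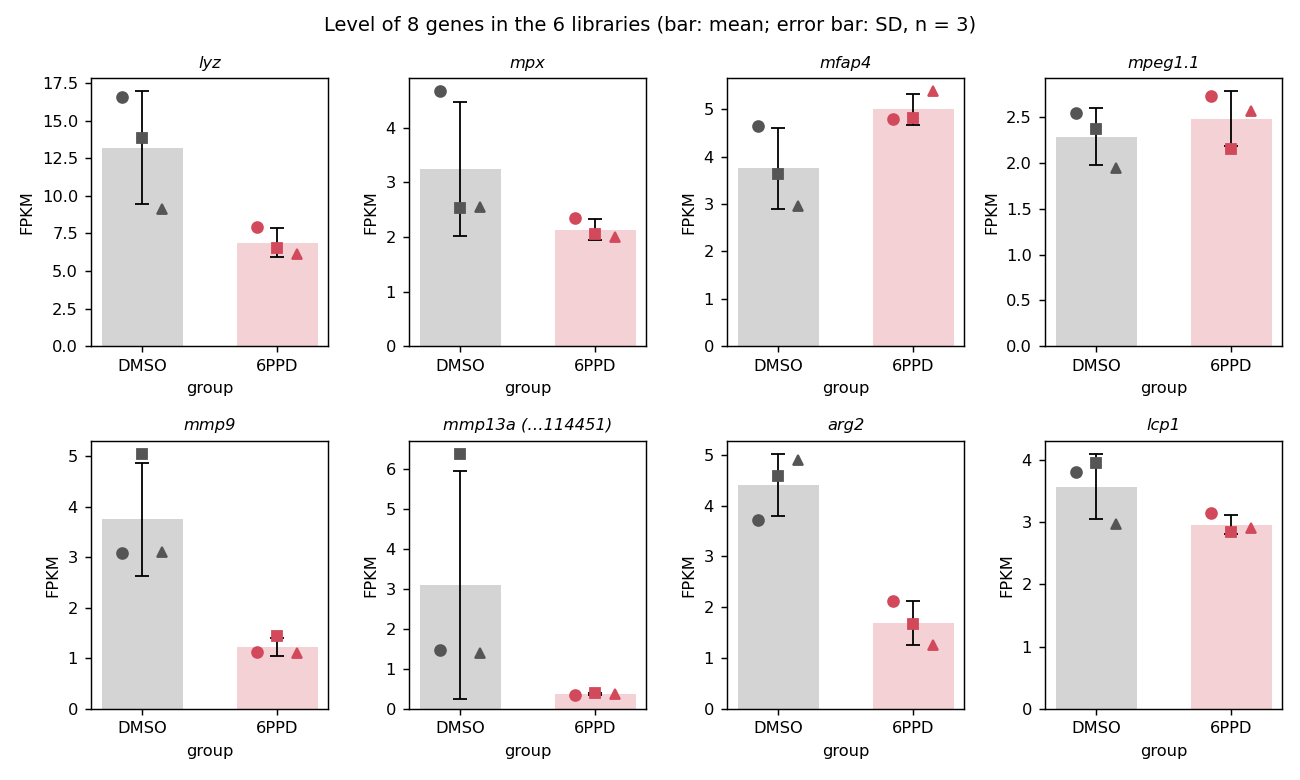
FPKM (y axis, from 0) of 8 genes in DMSO and 6PPD (x axis); bars are means, error bars SD over 3 libraries, and marks are replicates 1 (circle), 2 (square) and 3 (triangle). The treated values of mmp9 and arg2 lie far below the controls, those of lyz and mpx lie below controls that spread widely, and mfap4 alone of the 8 is higher in 6PPD without overlap.

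A wider list of 96 myeloid and leukocyte genes had 84 entries in the table, of which 36 were tested. This list was not divided into restricted and shared genes, so its values are not those of leukocytes alone. Its gata2a, slc37a2 and cxcl12a genes averaged 23.3, 20.4 and 16.9 FPKM over all libraries. The highest restricted gene, lyz, averaged 10.0 FPKM. Limma called 0 of the 36 tested, where 3.41% of all genes tested were called. At an unadjusted p under 0.05, 7 were higher and 4 lower, where 13.4% and 6.93% of all genes tested were. The 7 higher included the transcription factor gene runx3, which passed the filter only through its 6PPD level. The median log2 fold change of those tested was 0.03. The smallest p belonged to the actin-severing protein gene scinlb (-0.54) and the transcription factor gene mafbb (-0.47), followed by the tetraspanin gene tspan33a (0.41), the membrane metalloprotease gene mmp25b (0.41), the arginine deiminase gene padi2 (-0.47) and the chemokine gene cxcl12a (0.29), with limma adjusted p of 0.0559, 0.0741, 0.0913, 0.103, 0.153 and 0.181. The gene slc37a2, known from microglia and picked with its values in view, was at -0.0031 (limma adjusted p = 0.987). Its mean over all libraries was 20.4 FPKM, against 0.266 FPKM for the microglial gene p2ry12. The part of microglia in the slc37a2 level was not tested, so it is no measure of these cells.

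The cytokine genes il1b and tnfb of this list lay below the filter, and they were picked with their values in view. The interleukin 1 beta gene il1b had 0.780, 1.69 and 1.01 FPKM in DMSO and 0.0827, 0.0575 and 0.0904 FPKM in 6PPD. The tumour necrosis factor gene tnfb had 1.18, 1.46 and 1.68 FPKM in DMSO and 0.259, 0.355 and 0.312 FPKM in 6PPD. Both were lower in every treated than in every control library. Neither was tested in the main comparison. With no filter, where 0.0964% of genes were called, neither was called (limma adjusted p = 0.0722 for il1b and 0.052 for tnfb).

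Of 48 entries of this list below the filter, 7 were lower and 2 higher without overlap. Of all genes below the filter 2.42% were lower, and 8.45% stood apart in either direction. That background is unlike the list, since 10935 of those 16737 genes averaged under 0.1 FPKM, against 14 of the 48. Of the 36 tested, 5 were lower and 12 higher without overlap, where 9.18% and 17.1% of all genes tested were. Among the 12 higher was runx3, which passed the filter only through its 6PPD level. The il1b and tnfb genes averaged above 1 FPKM in DMSO, and lgals9l1 did so in 6PPD, but all lay below the filter. The balance of higher and lower genes among those tested thus depends in part on the filter. Beside il1b and tnfb, those lower below the filter were the fatty acid receptor gene gpr84, the lipoxygenase gene alox5a, the chemokine receptor gene ccr9a, the regulator gene rgs13 and the neutrophil attractant gene cxcl8b.1. The gpr84 gene had 0.306, 0.444 and 0.431 FPKM in DMSO and 0.152, 0.0514 and 0.0979 FPKM in 6PPD. The cxcl8b.1 gene was listed at 0 in all 6PPD libraries and had 0.0935, 0.233 and 0.0875 FPKM in DMSO. The genes higher below the filter were lgals9l1 and sla2. The galectin gene lgals9l1 had 0.457, 0.671 and 0.725 FPKM in DMSO and 1.26, 1.06 and 0.867 FPKM in 6PPD. The adaptor gene sla2 had 0.211, 0.136 and 0.184 FPKM in DMSO and 0.577, 0.847 and 0.838 FPKM in 6PPD. With no filter neither sla2 nor lgals9l1 was called (limma adjusted p = 0.0626 and 0.236). The tnfa gene was listed at 0 in 4 of 6 libraries.

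Markers of other cell types in the head were read beside these results. Over all genes tested, 1.15% were called lower and 2.26% higher, and 6.93% were lower and 13.4% higher at an unadjusted p under 0.05. A positive log2 fold change was seen in 9420 of these 15320 genes. Of 28 epidermis and periderm markers tested, 3 fell (cldnb, agr1 and cldne), 16 (these included) were lower at an unadjusted p under 0.05, and the median log2 fold change was -0.39. The mean log2 level of that list was 5.73, 5.42 and 5.26 in DMSO and 5.25, 4.96 and 5.12 in 6PPD, with 0 of its 29 entries listed at 0 in a library. DMSO replicate 1 was the highest control for this list. It was also the highest for the summed FPKM of all genes and 7 of the 10 restricted genes tested, lyz and mpx among them. By mean log2 level, the erythroid, pigment cell and lymphoid, thrombocyte and mast cell lists were highest in DMSO replicate 1 too. The endothelial and wider myeloid lists were highest in DMSO replicate 3, and the neuronal list in DMSO replicate 2. The mmp9 gene and the second mmp13a entry were highest in DMSO replicate 2 and arg2 in DMSO replicate 3. The cause of these orders was not tested. Of 12 pigment cell markers tested 1 fell (pnp4a), and at an unadjusted p under 0.05 0 were higher and 4 lower. Of 20 endothelial markers 1 fell (plvapb), while 17 had a positive log2 fold change (median 0.15), and 2 were higher and 1 lower at that unadjusted threshold. Of 12 neuronal markers 2 rose (elavl3 and snap25a), and 4 were higher and 0 lower at that threshold. Of 12 erythroid markers limma called 0, and 3 were lower at an unadjusted p under 0.05. Of 2 lymphoid, thrombocyte and mast cell genes tested limma called 0, with 1 higher at an unadjusted p under 0.05. This was pax5 (log2 fold change 0.68, limma adjusted p = 0.0504), while the B cell gene cd79a was listed at 0 in all 6 libraries. Which cells of the head held the pax5 RNA was not tested. The part of other cell types in the falls of lyz, mmp9 and arg2 was not tested.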

How the data were processed

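The 6 libraries were made from poly(A) RNA by a strand-marking dUTP method, per the labels' protocols. The authors deposited FPKM values, fragments scaled by gene length and mapped fragments. Fastp, HISAT2, featureCounts, StringTie and the build GRCz11 appear in the submitters' processing notes, without versions or roles. The summed FPKM of a library ran from 434258 to 472121, and values were used as deposited, without rescaling to a common sum. With such rescaling 401 genes were called higher and 130 lower, against 346 and 176 without it. The lyz, mmp9 and arg2 calls were kept.

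Groups come from the labelled treatment. With limma 3.58.1 (R 4.3.3; moderated variances with an intensity trend, two-sided), log2(FPKM + 1) of the genes that averaged 1 FPKM or more was compared between 6PPD and DMSO without covariates, and the procedure was tested on simulated data. Fold changes on this scale understate the change of low genes. With 3 libraries against 3, a permutation test of a single gene cannot pass the threshold, so none was used.

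The members, their division into restricted and shared genes, and the gene lists were chosen with earlier results of these data known. Members with values in every library are those called, those whose groups did not overlap and 10 defining markers; some further members are given by library too, picked with their values in view. Of the wider myeloid list, all called genes and the 6 with the smallest p were named by rule, and further genes with their values in view. Of the other lists, called genes were named, up to 4, and pax5 and cd79a with their values in view. Sequences were not used here.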

Additional observations from a re-analysis of the deposited data

How the results depend on the processing

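The count of 522 called genes fell to 26 with no filter on low values and to 335 with a constant prior, and ranged from 168 to 1130 when 1 library was left out. Of the restricted genes, lyz was the 1 called, and 0 were called with no filter, after cyclic loess or with a constant prior, and 0 to 1 when 1 library was left out. Of the shared genes, 2 were called, 0 with no filter and 1 to 3 when 1 library was left out (3 without DMSO replicate 3, with the second mmp13a entry). With no filter the adjusted p was 0.169 for lyz, 0.0916 for mmp9 and 0.0783 for arg2. At a mean of at least 5 FPKM no shared gene was left to test.

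The sign of genes near 0 was not stable. The log2 fold change of mpeg1.1 (0.08) was -0.0070 after cyclic loess. That of coro1a (-0.03) was 0.012 after rescaling to a common sum, and ran from -0.18 to 0.082 when 1 library was left out (0.0024 without DMSO replicate 2, 0.079 without 6PPD replicate 2). Of 154 values of 9 named genes under alternatives, 134 kept sign and side of the threshold, 13 lost the call, 2 gained it and 5 changed sign. The cause was not tested. One alternative, a filter on a mean of at least 1 FPKM in either group, was chosen after seeing the data. With it 548 of 15728 genes were called, and of the 21 members tested 3 were called (lyz, mmp9 and arg2). The il1b and tnfb genes passed it only through their DMSO level. Their calls there (limma adjusted p = 0.0176 and 0.0111) were therefore not used.

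The replicate numbers are shared between groups, but the deviations of same-numbered samples correlated at 0.030, 0.18 and -0.026, so the numbers were not taken to pair the samples. With the replicate block 455 genes were called, with 1 restricted and 2 shared genes as before. Read totals are unknown, which limits every statement on genes below 1 FPKM.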
